A study of Homo sapiens with 30 samples.

Results

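The 6 genes that stood out in OCI-LY19, a human diffuse large B cell lymphoma line, were followed through all 10 groups of an RNA-seq study of doxorubicin, an anthracycline that traps topoisomerase II on DNA. They are CSPG4, HSPG2, LDLRAD2, HAAO, CHRNA6 and METTL7A, 6 of the 60656 genes listed. They were chosen by their measured FPKM differences, being much higher after the drug in OCI-LY19 and changed little in the lines OCI-LY3 and HT, without a numeric threshold. Values in those 3 lines are therefore a description and carry no test. SUDHL5, and the pair OCI-LY19S and OCI-LY19R, are not part of that rule and were tested.

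OCI-LY19, SUDHL5, OCI-LY3 and HT cells were sampled without drug at 0 h and after 24 h in 0.2 µM doxorubicin. OCI-LY19S is the sensitive parental culture of OCI-LY19 in drug-free medium, and OCI-LY19R is a single resistant derivative kept in 20 nM doxorubicin, which was withdrawn a week before use. Every group has 3 libraries, called biological replicates in the labels. The titles of the 24 h libraries carry both the name of the drug and the word ctrl, and the treatment label was followed. There is no untreated 24 h library, so drug and culture time cannot be told apart, nor can resistance and the culture history of the single derivative.

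CSPG4 encodes a membrane-spanning chondroitin sulfate proteoglycan known from pericytes, glial precursors and melanoma cells. HSPG2 encodes perlecan, a large heparan sulfate proteoglycan of basement membranes, and LDLRAD2 a little-studied protein with an LDL class A domain. HAAO is the dioxygenase that acts on hydroxyanthranilate on the path from tryptophan to NAD, CHRNA6 is a ligand-binding subunit of nicotinic acetylcholine receptors best known from dopaminergic neurons, and METTL7A (RefSeq TMT1A) is a membrane-bound thiol methyltransferase. Doxorubicin breaks DNA and thereby activates p53, a transcription factor that switches on its targets where it is functional.

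HSPG2 and LDLRAD2 lie beside each other on chromosome 1, and their start stretches are shown because both genes were higher in the same comparisons while their starts are 125045 bases apart. With coordinates from GENCODE 29 on GRCh38 and gene identifiers as the deposited tables give them (their version can differ from that of GENCODE 29), LDLRAD2 (ENSG00000187942.12, chr1:21812265-21825221, plus strand) and HSPG2 (ENSG00000142798.20, chr1:21822245-21937297, minus strand) meet tail to tail and overlap over 2977 bases. The 250 bases before each start, from RefSeq on GRCh38.p14, read 5′ to 3′ on the strand of the gene, with GC boxes (GGGCGG or CCGCCC, either strand, overlapping matches each counted) in capitals.
LDLRAD2 (chr1:21812015-21812264, plus strand): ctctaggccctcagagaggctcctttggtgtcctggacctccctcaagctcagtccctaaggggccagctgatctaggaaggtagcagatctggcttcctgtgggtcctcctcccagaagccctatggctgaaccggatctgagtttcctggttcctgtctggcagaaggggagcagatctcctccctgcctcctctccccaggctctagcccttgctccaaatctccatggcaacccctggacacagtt
HSPG2 (chr1:21937311-21937560, minus strand): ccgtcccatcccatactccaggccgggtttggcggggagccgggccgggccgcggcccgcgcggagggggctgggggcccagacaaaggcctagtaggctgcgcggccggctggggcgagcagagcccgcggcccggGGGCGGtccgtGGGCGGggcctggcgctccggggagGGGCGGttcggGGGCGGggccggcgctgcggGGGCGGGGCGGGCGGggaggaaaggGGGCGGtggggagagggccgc
The HSPG2 stretch is 82.8% G or C and holds 8 GC boxes, whereas the LDLRAD2 stretch is 58.8% G or C and holds 0. Of all 35116 RefSeq promoter windows, 42.6% have a GC box in these 250 bases, and the median G or C content is 58.0%. The p53 half-site (the 10-base consensus, the same on both strands) was matched 0 times in the 300-base windows of the 5 genes with an entry (250 bases before to 50 after the start; CHRNA6 was not looked up elsewhere). It is present in 6.63% of all windows, and a pair of half-sites 0 to 13 bases apart in 0.0285%.

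Library size, in reads recovered from the deposited FPKM values (reads scaled to exon length and library size), ran from 16067405 to 38337869 in the 4 lines. It was 121769119 in OCI-LY19S replicate 3 and 18354091 to 33439107 in the other 5 libraries of that table. The SUDHL5 replicates differed from each other by 1.85 to 6.52 times the variance expected from counting, against 7.70 to 28.2 in the other 3 lines. The standard errors of the 4 lines come from 1 estimate of the spread per gene over their 8 groups and are therefore the same in each line. The 6 B cell markers CD79A, CD79B, MS4A1, PAX5, CD22 and BLNK had a mean FPKM of at least 1 in all 10 groups. Of 18 stromal, pericyte, endothelial, melanocyte and epithelial markers, summed FPKM went from 10.1 to 11.5 in untreated OCI-LY19 up to 39.9 to 47.8 after the drug, and from 8.50 to 8.64 up to 24.7 to 25.4 in SUDHL5. Of the 7 tested, 5 rose and 1 fell in OCI-LY19 (34.5% of all genes rose and 23.7% fell), and 2 rose and 0 fell in SUDHL5 (18.6% and 19.9%). Most of the treated sum was ACTA2, smooth muscle actin (2.97 to 34.6 in OCI-LY19). The pericyte receptor PDGFRB rose from 2.10 to 3.59 with overlapping libraries (limma adjusted p = 0.0149, and 0.0796, 0.104 and 0.135 without untreated replicates 2 and 3 or treated replicate 1), the melanocyte gene MLANA from 0.363 to 1.20 and the endothelial gene PECAM1 from 0.0517 to 0.235 (limma adjusted p = 0.00400, and 0.638 after quantile normalization). Genes of the list at 0 in every library of a group went from 5 to 1 in OCI-LY19, and COL1A2, CDH5, KDR and TYR, picked out after their values were seen, were at or below a mean of 0.0102 in both groups. For 12 T, NK and myeloid markers the sum went from 12.4 to 16.1 up to 25.7 to 39.4 in OCI-LY19, and 4.63 to 5.398 up to 21.9 to 25.1 in SUDHL5. Of the 7 tested, 3 rose and 0 fell in OCI-LY19 (34.5% and 23.7% of all genes), with the integrin ITGAM going from 0.0687 to 10.4. In SUDHL5 5 rose and 0 fell (18.6% and 19.9%), among them LYZ (0.247 to 3.79), CD3D (0.728 to 5.40) and CD3E (2.28 to 8.09). The sum of the 18 markers was also higher after the drug in OCI-LY3 (28.5 to 34.1, then 34.8 to 42.1) and HT (6.75 to 7.19, then 9.70 to 10.6). The T, NK and myeloid sum was higher there too. In both of these lines CSPG4 and HAAO libraries overlapped between the groups, and those of METTL7A did not. HSPG2, LDLRAD2 and CHRNA6 libraries overlapped in HT only. The part of these marker sums in the results was not tested. As all libraries are bulk RNA, fewer cells with a transcript and less RNA per cell cannot be told apart.

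**Figure D1:**
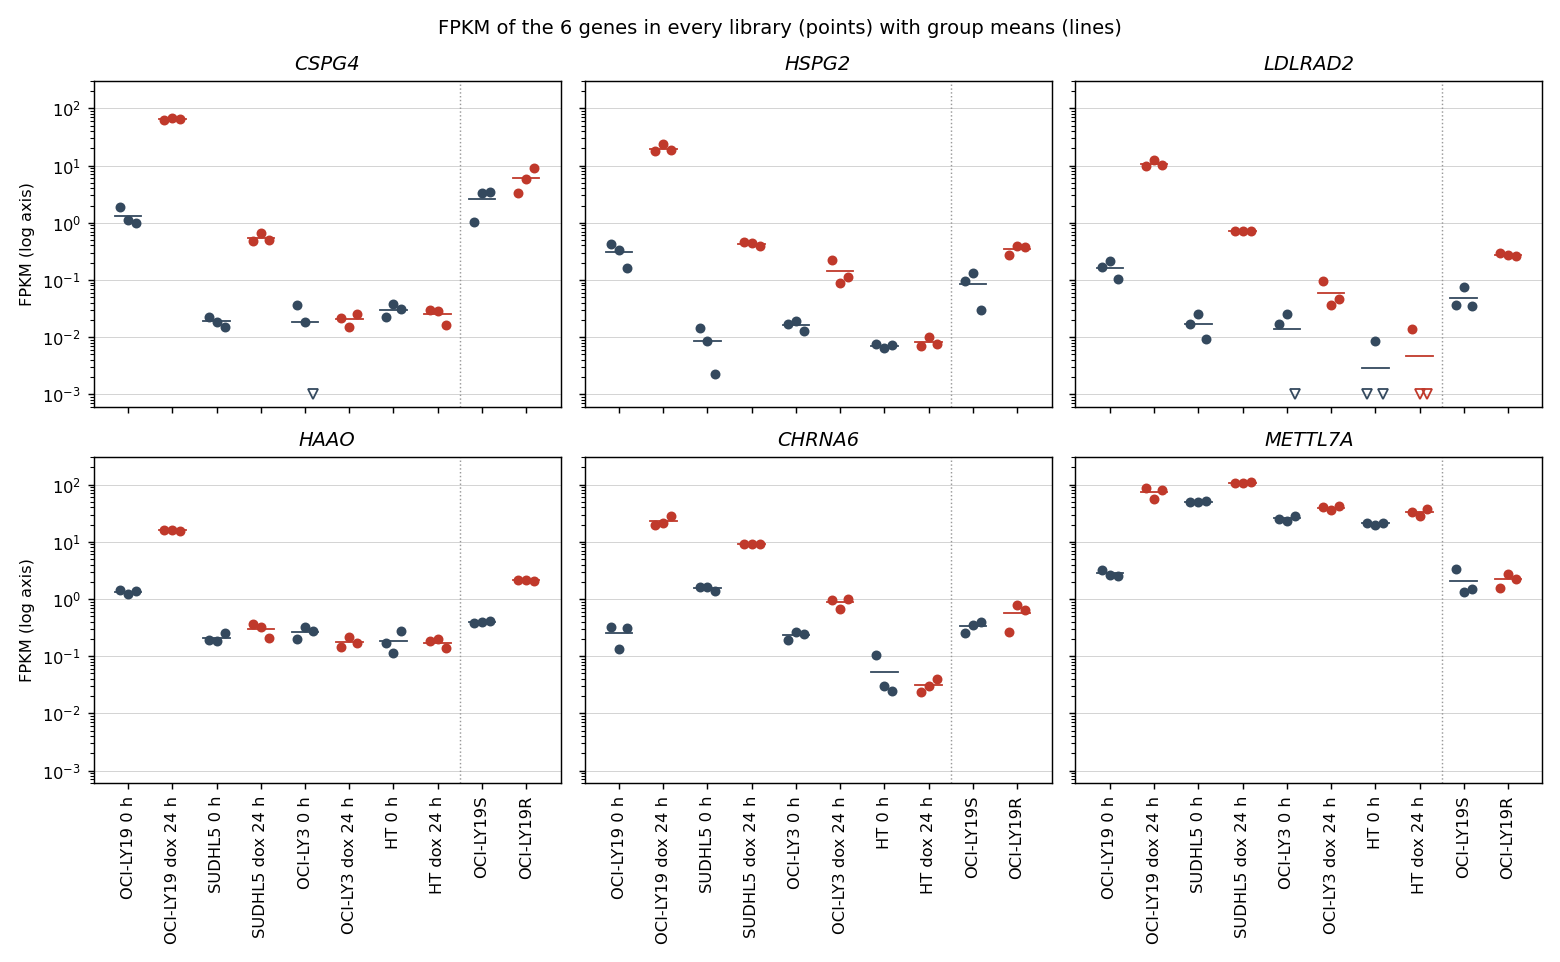
FPKM of the 6 genes (log axis) in all 30 libraries, 1 point per library, with group means as lines; open triangles at the bottom are libraries with 0 reads. The dotted line separates 2 tables that were normalized apart. Treated OCI-LY19 is the highest group for every gene but METTL7A, which was higher in treated SUDHL5.

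The proteoglycan core protein gene CSPG4 (ENSG00000173546.7, chr15:75674322-75712848, minus strand) went from near 1 FPKM to over 60 FPKM in treated OCI-LY19. Its FPKM was 1.87, 1.11 and 1.004 in the untreated OCI-LY19 libraries and 63.4, 66.6 and 65.3 after 24 h. All treated libraries were far above all untreated ones. The difference was 4.85 ± 0.09 (SE, n = 3) on the log2(FPKM + 1) scale, the highest of the 17645 genes tested. In OCI-LY3 its mean was 0.0184 FPKM untreated and 0.0207 treated, and in HT 0.0302 and 0.0249, with overlapping libraries in both lines. These rest on 12 to 20 reads per group summed over 3 libraries. In OCI-LY3 replicate 3 at 0 h there was no read, which allows up to 0.0142 FPKM (3 reads).

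CSPG4 in SUDHL5 was 0.0229, 0.0186 and 0.0148 FPKM untreated and 0.473, 0.651 and 0.493 treated. The treated libraries were all above the untreated ones, yet still below every untreated OCI-LY19 library. The gene rose by 0.59 ± 0.09 on the log2(FPKM + 1) scale (limma, Benjamini-Hochberg adjusted p = 2.65e-05). In reads this was 12 against 325, a ratio of 28.7 of library-scaled reads (95% exact interval 16.2 to 56.1, counting error only), next to 47.0 (44.1 to 50.1) in OCI-LY19. Adding 1 to each value hides a large ratio where a gene starts near 0: limma-voom on the recovered reads gave a log2 change of 4.72 ± 0.59 in SUDHL5 (adjusted p = 1.05e-06).

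HSPG2 had a mean of 0.309 FPKM in untreated OCI-LY19 (0.429, 0.336 and 0.163) and 19.8 after the drug (17.7, 23.4 and 18.3). LDLRAD2 had 0.170, 0.217 and 0.102 FPKM before and 9.95, 12.4 and 10.1 after. In both genes every treated library exceeded every untreated one, by 3.98 ± 0.08 for HSPG2 and 3.34 ± 0.06 for LDLRAD2 on the log2(FPKM + 1) scale. The read ratios were 61.4 (56.3 to 67.2) and 66.1 (51.7 to 86.0). Treated replicate 2 was the highest library for both genes. It is among the 4 libraries whose name ends in 2nd, a mark the labels do not explain.

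Both genes rose in SUDHL5. HSPG2 was 0.0147, 0.00851 and 0.00226 FPKM untreated and 0.452, 0.450 and 0.396 treated, and it rose by 0.51 ± 0.08 (limma adjusted p = 8.11e-05). LDLRAD2 was 0.0169, 0.0257 and 0.00913 untreated and 0.731, 0.715 and 0.723 treated, and it rose by 0.76 ± 0.06 (limma adjusted p = 1.95e-08). The treated libraries of each gene lay within a narrow band well above the untreated ones. On recovered reads the log2 changes were 5.80 ± 0.67 for HSPG2 and 5.18 ± 0.56 for LDLRAD2 (limma-voom adjusted p = 3.10e-07 and 1.22e-07). The read ratios of 50.6 (28.7 to 98.5) for HSPG2 and 41.5 (18.8 to 114) for LDLRAD2 had intervals that overlapped those in OCI-LY19, although the treated level in SUDHL5 was a small part of that in OCI-LY19.

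Both genes were also higher in treated OCI-LY3, at low levels. HSPG2 there had 0.0169, 0.0188 and 0.0130 FPKM untreated and 0.227, 0.0872 and 0.112 treated, a read ratio of 8.99 (5.83 to 14.5). LDLRAD2 went from 5 reads to 21 reads, a ratio of 4.34 (1.59 to 14.7). In both genes the treated OCI-LY3 libraries were above the untreated ones, at levels no higher than 0.227 FPKM. In HT, HSPG2 stayed between 0.00638 and 0.0101 FPKM in all 6 libraries. LDLRAD2 in HT had 1 read in each group, so its ratio of 0.935 (0.0119 to 73.4) is not informative, and each HT library without a read allows up to 0.0174 to 0.0306 FPKM.

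The exons of HSPG2 and LDLRAD2 share 2121 bases on opposite strands, which is 47.2% of the counted LDLRAD2 exons and 11.7% of those of HSPG2. The library kit keeps strand, but the strand setting of the counting is not given in the sources used here. It is therefore not known whether reads of the shared stretch were told apart between these genes. The same holds for CSPG4 and 2 antisense genes inside it. The one at chr15:75676227-75677162 (AC105020.4, ENSG00000260892) went from 1.93 to 71.1 FPKM in OCI-LY19 and from 0.0714 to 0.919 in SUDHL5, and the other, AC105020.1, from 0.0593 to 1.44 in OCI-LY19 and from 0.00574 to 0 in SUDHL5. Of the near copies of CSPG4, the pseudogene CSPG4P10 lay between 0.496 and 2.37 FPKM in group means and did not follow the CSPG4 pattern: its highest mean was in untreated SUDHL5.

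**Figure D2:**
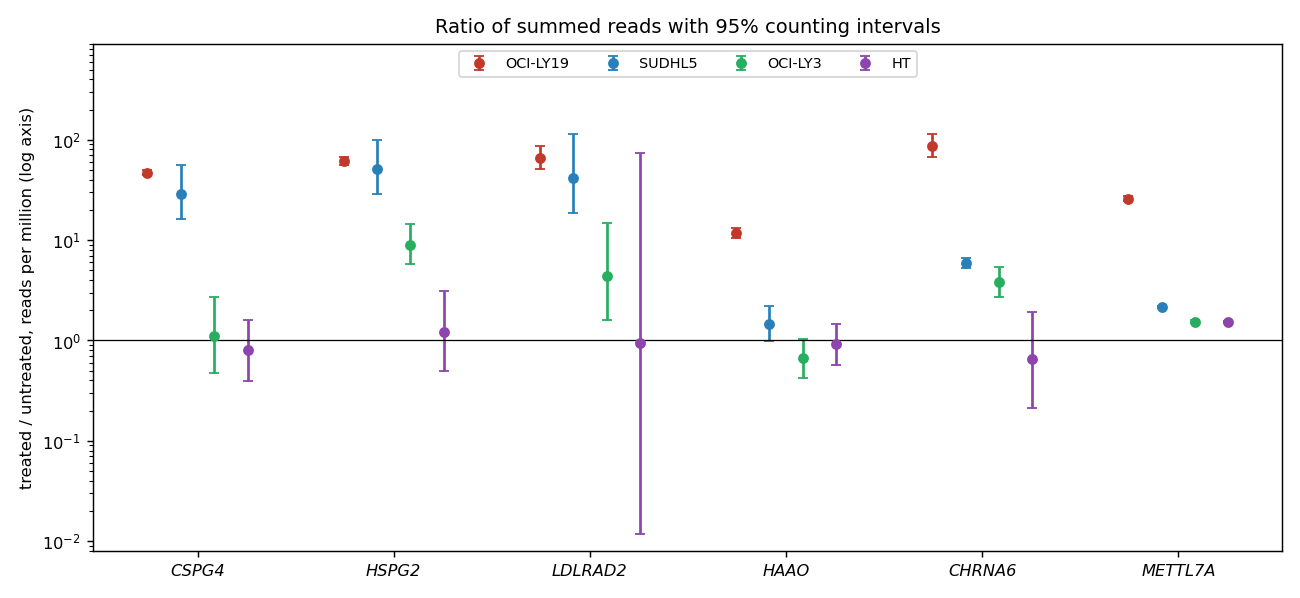
Ratio of treated to untreated reads, scaled to library size, for each gene and line (log axis), summed over 3 libraries a group, with 95% intervals for counting error only. CSPG4, HSPG2 and LDLRAD2 have ratios of 28.7 to 50.6 in SUDHL5, and HAAO in SUDHL5 has an interval of 0.981 to 2.22.

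HAAO (ENSG00000162882.15, chr2:42767089-42792593, minus strand) differed in OCI-LY19, while in each of the other 3 lines the interval of its read ratio spanned 1. Its FPKM was 1.42, 1.22 and 1.39 in untreated and 16.2, 16.2 and 15.2 in treated OCI-LY19, a difference of 2.84 ± 0.07 and a read ratio of 11.7 (10.4 to 13.2). The 3 treated libraries were close to each other and well above the untreated ones. In SUDHL5 it was 0.195, 0.184 and 0.256 untreated and 0.363, 0.323 and 0.206 treated, so the groups overlapped. The difference of 0.10 ± 0.07 did not pass (limma adjusted p = 0.274), with a read ratio of 1.47 (0.981 to 2.22). That interval, like those of the other lines, covers counting error only. The SUDHL5 libraries differed by 1.85 to 6.52 times the counting variance, so a change beyond that interval is not excluded. Means were 0.263 and 0.176 FPKM in OCI-LY3 and 0.185 and 0.173 in HT, again with overlapping libraries.

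CHRNA6 (ENSG00000147434.9, chr8:42752620-42796392, minus strand) had the largest read ratio in OCI-LY19, 86.2 (66.9 to 113). The untreated libraries held 0.328, 0.135 and 0.310 FPKM and the treated ones 19.9, 20.9 and 28.2, a difference of 4.24 ± 0.10. SUDHL5 held more of it untreated than OCI-LY19 did, with 1.62, 1.63 and 1.41 FPKM, and 9.27, 9.21 and 9.11 treated. The groups were far apart, and the gene rose by 1.998 ± 0.10 (limma adjusted p = 1.11e-11), with a read ratio of 5.91 (5.23 to 6.69). In OCI-LY3 it was 0.191, 0.263 and 0.241 FPKM untreated and 0.954, 0.673 and 0.993 treated, also without overlap and with a read ratio of 3.79 (2.73 to 5.34). In HT it stayed at 7 to 10 reads a group. CHRNA6 thus differed in 3 of the 4 lines, in the order OCI-LY19, SUDHL5 and OCI-LY3 by treated level, and those 3 treated groups did not overlap.

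METTL7A (ENSG00000185432.12, chr12:50923472-50932517, plus strand) was expressed in all lines, and its difference in OCI-LY19 started from the lowest untreated level of the 4. Untreated OCI-LY19 held 3.28, 2.65 and 2.50 FPKM, against 23.5 to 28.0 in OCI-LY3, 19.8 to 21.7 in HT and 49.4 to 51.4 in SUDHL5. After 24 h it was 85.7, 57.1 and 79.0 FPKM in OCI-LY19, a difference of 4.28 ± 0.12, which placed it between treated OCI-LY3 (mean 39.3) and treated SUDHL5 (mean 108). In SUDHL5 the libraries went from 49.5, 49.4 and 51.4 to 108, 109 and 109, and the gene rose by 1.10 ± 0.12 (limma adjusted p = 6.24e-07). In OCI-LY3 (25.4, 23.5 and 28.0 to 40.6, 35.7 and 41.6) and HT (21.4, 19.8 and 21.7 to 32.7, 27.7 and 37.5) every treated library was above every untreated one, by 0.60 ± 0.12 and 0.61 ± 0.12. On the log2(FPKM + 1) scale these differences, and that of CHRNA6 in OCI-LY3 (0.60 ± 0.10), were the largest of the 6 genes in those 2 lines. By read ratio HSPG2 (8.99) and LDLRAD2 (4.34) exceeded CHRNA6 (3.79) and METTL7A in OCI-LY3.

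**Figure D3:**
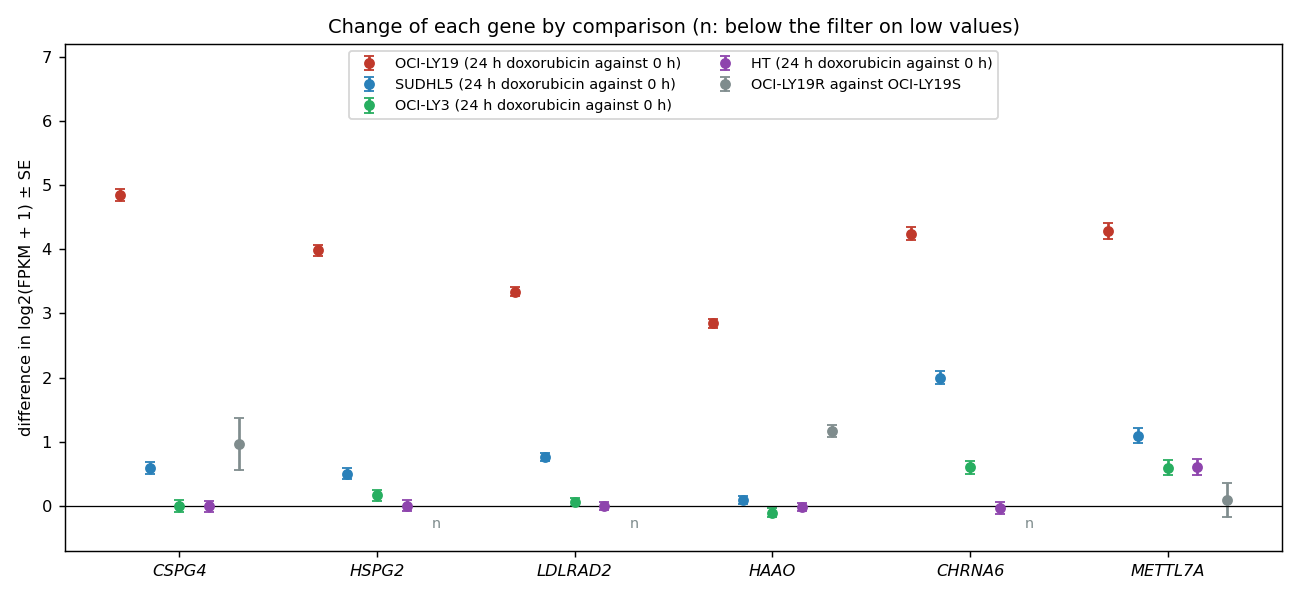
Difference in log2(FPKM + 1) with its standard error for each gene in 5 comparisons, n = 3 libraries a group; the letter n marks genes below the filter on low values. OCI-LY19 differences lie between 2.84 and 4.85, and the next largest is CHRNA6 in SUDHL5 at 1.998.

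In SUDHL5 as a whole, 5 of the 6 members rose and 0 fell (limma adjusted p below 0.05), where 18.6% of all 17645 genes rose. In SUDHL5 59.9% of genes had libraries that did not overlap. Each of the 6 calls stayed on its side of the threshold in the 16 alternatives run, which left out each SUDHL5 library in turn or changed scaling, filter, pseudocount or fit. In the lines that chose the members, the libraries did not overlap in 6 of 6 members in OCI-LY19 (61.2% of all genes, and 36.7% with the treated group higher), 4 of 6 in OCI-LY3 (57.4% and 42.5%) and 1 of 6 in HT (42.2% and 29.8%), which is given as a description. By level, however, only CHRNA6 and METTL7A exceeded 1 FPKM in treated SUDHL5. Across the 24 libraries of the 4 lines, after the untreated mean of each line was subtracted, Pearson correlations between members ran from 0.898 (HAAO and CHRNA6) to 0.998 (CSPG4 and HSPG2); these points share libraries and treatment, and the members were chosen for the pattern.

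HAAO, LDLRAD2 and HSPG2 were higher in every OCI-LY19R library than in every OCI-LY19S library, and the other 3 members overlapped. HAAO was 0.380, 0.393 and 0.410 FPKM in the OCI-LY19S libraries and 2.15, 2.17 and 2.05 in those of OCI-LY19R. The 2 groups were tight and far apart, with a difference of 1.16 ± 0.09 on the log2(FPKM + 1) scale. It passed the filter on low values only through the OCI-LY19R libraries, so the filtered fit favours a call and gives no value when 1 of those libraries is left out. With no filter, which does not choose the gene by its level, the adjusted p was 0.0309 (limma), against 0.00321 in the filtered fit. In the filtered fit 3.11% of 12785 genes rose and 20.9% had non-overlapping libraries with OCI-LY19R higher (32.7% in either direction). The authors' deposited table gives HAAO a log2 fold change of 2.34 and an adjusted p of 1.41e-18.

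LDLRAD2 had 0.0364, 0.0758 and 0.0347 FPKM in the sensitive libraries and 0.299, 0.270 and 0.262 in the resistant ones, and HSPG2 had 0.0962, 0.132 and 0.0295 against 0.277, 0.384 and 0.376. Neither gene overlapped between the groups, and both were below the filter, so neither has a value in the fit as planned. With no filter LDLRAD2 had an adjusted p of 0.0400 and HSPG2 of 0.0930. On recovered reads (limma-voom, at least 10 reads in 3 libraries, chosen after seeing the data) the log2 changes were 2.60 ± 0.35 (adjusted p = 0.00521) for LDLRAD2, which passed that filter only through OCI-LY19R, and 2.67 ± 0.46 (adjusted p = 0.0122) for HSPG2. The authors' deposited table gives 2.55 and 2.01, with adjusted p of 3.73e-05 and 0.00012. As shared exon bases are 47.2% of LDLRAD2 and the strand setting is not given, its value and that of HSPG2 may not be independent here either.

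For the other 3 members the libraries were mixed. CSPG4 was 1.03, 3.29 and 3.48 FPKM in the sensitive and 3.26, 5.74 and 9.07 in the resistant libraries, a difference of 0.97 ± 0.40 (limma adjusted p = 0.205, and 0.042 with the replicate block). The groups overlapped, and the lowest OCI-LY19S library was replicate 1, which differed from the other OCI-LY19S libraries by 32.9 and 48.9 times the counting variance, against 8.83 between those. CHRNA6 was 0.252, 0.356 and 0.392 against 0.265, 0.787 and 0.648 FPKM, below the filter, and METTL7A was 3.40, 1.35 and 1.53 against 1.55, 2.78 and 2.27, a difference of 0.09 ± 0.26 (limma adjusted p = 0.869). Every member remained far below its level in drug-treated OCI-LY19, with the caution that the tables were normalized apart. With the same caution, untreated OCI-LY19 had means of 1.34 FPKM for HAAO, 0.163 for LDLRAD2 and 0.309 for HSPG2. These lie between the means of OCI-LY19S (0.394, 0.0490 and 0.0857) and those of OCI-LY19R (2.12, 0.277 and 0.346). For the other members the untreated OCI-LY19 mean lay below both cultures (CSPG4 1.33 and CHRNA6 0.258 FPKM) or above both (METTL7A 2.81 FPKM). The means of HAAO, LDLRAD2 and HSPG2 thus also differed between drug-free cultures of this line. That difference and its reason were not tested. The summed stromal, pericyte, endothelial, melanocyte and epithelial markers were at 8.23 to 9.78 FPKM in OCI-LY19S and 11.3 to 21.1 in OCI-LY19R. There 1 of 3 tested rose and 0 fell (3.11% and 2.34% of all genes). The rising gene was PDGFRB, from 0.132 to 8.14 FPKM (2.90 ± 0.32, limma adjusted p = 0.00826). PDGFRB passed the filter only through OCI-LY19R and had an adjusted p of 0.0522 with no filter and 0.0593 without OCI-LY19S replicate 2. The T, NK and myeloid sum was 16.7 to 25.4 against 23.2 to 36.4, with 0 of 3 tested rising. The part of these markers in the differences between the cultures was not tested.

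The gene next to HAAO was higher, as HAAO was, in treated OCI-LY19 and in OCI-LY19R. OXER1, which encodes a receptor for oxidised arachidonic acid products, lies on the same strand 2828 bases beyond the end of HAAO (chr2:42762481-42764261). Its mean FPKM was 0.494 ± 0.038 (SD, n = 3) untreated and 6.86 ± 0.47 treated in OCI-LY19, and it rose by 2.39 ± 0.07 (limma adjusted p = 1.74e-15). It was 0.255 ± 0.099 FPKM in OCI-LY19S and 1.73 ± 0.29 in OCI-LY19R, a difference of 1.12 ± 0.12. It too passed the filter only through OCI-LY19R, and its limma adjusted p was 0.00850 there, 0.0503 with no filter and 0.0593 without OCI-LY19S replicate 2. In SUDHL5 OXER1 rose a little, from 0.247 to 0.528 FPKM (0.30 ± 0.07, limma adjusted p = 0.00215), and in OCI-LY3 it fell from 0.460 to 0.267 (limma adjusted p = 0.0178, and 0.0647 or 0.0903 without untreated or treated replicate 2). In HT it did not pass (0.285 and 0.198 FPKM). The gene beside CSPG4, SNX33, a sorting nexin 12021 bases away, rose by 0.95 ± 0.07 in OCI-LY19 (0.538 to 1.98 FPKM, limma adjusted p = 1.43e-09) and did not pass in SUDHL5 (0.146 to 0.229 FPKM, adjusted p = 0.310). It rose in OCI-LY3 from 0.0384 to 0.282 FPKM (0.30 ± 0.07, limma adjusted p = 0.00137, and 0.0815 after quantile normalization).

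The other neighbours that passed the filter were USP48, ZFP36L2 and THAP1. USP48, a deubiquitinase gene 28659 bases from LDLRAD2 and 38639 from HSPG2, rose in OCI-LY19 from 11.2 to 17.8 FPKM (0.62 ± 0.07, limma adjusted p = 4.89e-07), in OCI-LY3 from 9.05 to 12.9 and in HT from 8.13 to 10.6, and fell in SUDHL5 from 14.0 to 10.7 (limma adjusted p = 0.000574). ZFP36L2, an RNA-binding protein gene 429809 bases from HAAO, fell in OCI-LY19 from 49.1 to 34.3 FPKM (limma adjusted p = 0.0227) and in SUDHL5 from 9.16 to 6.15 (0.0219). These 2 calls were lost without single libraries: to 0.207 without OCI-LY19 untreated replicate 2, 0.103 and 0.0890 without treated replicates 1 and 3, and 0.0590, 0.0515 and 0.103 without SUDHL5 untreated replicates 1 and 2 and treated replicate 1. THAP1, 40282 bases from CHRNA6, fell in OCI-LY3 from 5.29 to 4.16 FPKM (limma adjusted p = 0.0119, and 0.0541 to 0.0776 without untreated replicate 2 or treated replicate 1 or 3) and did not pass in the other comparisons. Of these 3 genes 0 passed in OCI-LY19R against OCI-LY19S.

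**Figure D4:**
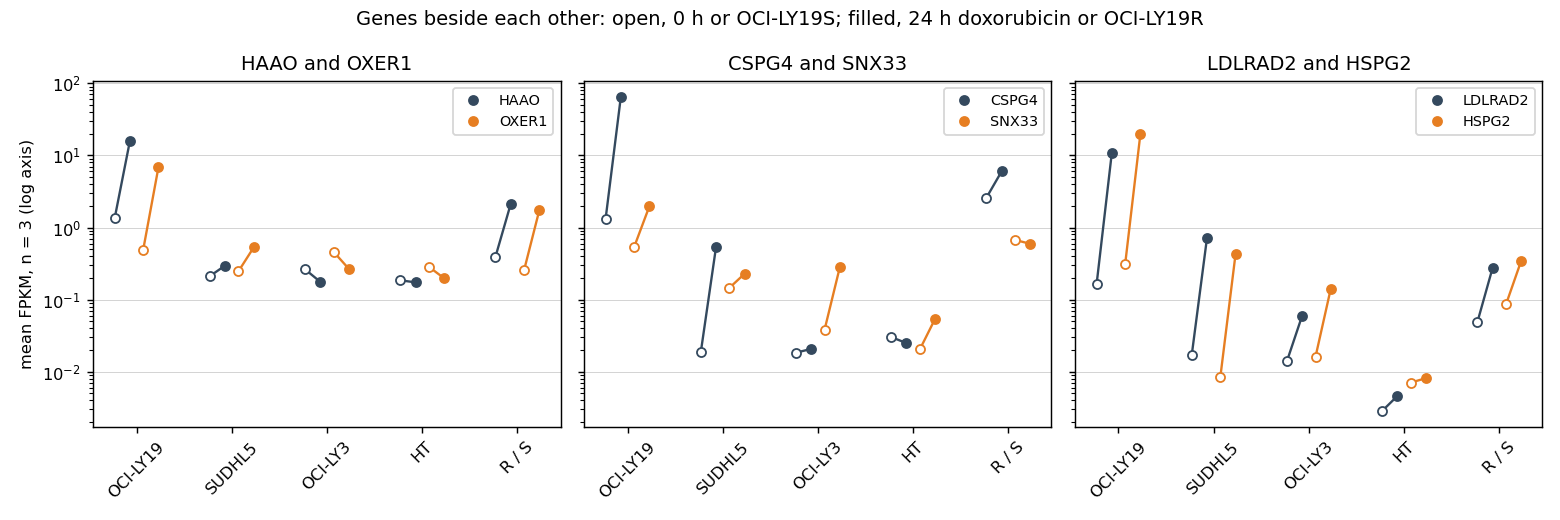
Mean FPKM (log axis, n = 3) of neighbouring gene pairs, joined from the open point (0 h or OCI-LY19S) to the filled point (24 h doxorubicin or OCI-LY19R). HAAO and OXER1 are both higher in treated OCI-LY19 and in OCI-LY19R, and HSPG2 and LDLRAD2 are both higher after the drug in OCI-LY19, SUDHL5 and OCI-LY3.

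Genes of related function, members excluded, were read from fixed lists. Of 25 other proteoglycan core protein genes, 12 were tested, and in OCI-LY19 8 rose and 0 fell (34.5% of all genes rose and 23.7% fell), with a median difference of 0.71 against 0.08 over all genes. SDC1, syndecan 1 of plasma cells, rose from 0.710 to 17.7 FPKM (3.48 ± 0.12, limma adjusted p = 2.19e-14), the basement membrane proteoglycan AGRN from 0.260 to 6.15 (2.49 ± 0.17) and the matrix proteoglycan VCAN from 0.519 to 5.80 (2.16 ± 0.07). In SUDHL5 6 of the 12 rose and 1 fell (18.6% and 19.9% of all genes). Among the rising genes were AGRN, from 1.32 to 6.28 FPKM, and SDC1, from 1.90 to 7.18. In OCI-LY19R 2 of 6 tested rose and 0 fell (3.11% and 2.34% of all genes). They were SRGN, the granule proteoglycan, from 13.6 to 38.8 FPKM (limma adjusted p = 0.0143) and VCAN from 0.854 to 3.04 (0.0152). Both lost the call with no filter (0.0692 and 0.0715), without OCI-LY19S replicate 2 (0.0593 and 0.0740) and without OCI-LY19R replicate 2 (0.0929 and 0.0960) or 3 (0.0637 and 0.0813).

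Of 18 other basement membrane genes only 4 were tested, and in OCI-LY19 2 rose and 0 fell (34.5% and 23.7% of all genes): NID1, nidogen, from 0.0147 to 3.34 FPKM (2.02 ± 0.16) and the laminin chain LAMC1 from 17.4 to 32.7 (0.87 ± 0.08). In SUDHL5 0 of the 4 passed (18.6% rose and 19.9% fell). In the list of LDL class A domain proteins 8 of 11 tested rose and 1 fell in OCI-LY19 (34.5% and 23.7% of all genes), with LRP1, an endocytic receptor, going from 0.0726 to 4.95 FPKM (2.44 ± 0.14), the sorting receptor SORL1 from 13.1 to 50.1 (1.87 ± 0.13) and the falling gene LRP8 from 8.98 to 4.18. In SUDHL5 3 of the 11 rose and 2 fell, near the 18.6% and 19.9% of all genes, with LDLRAD4 going from 0.695 to 4.64 FPKM and LRP10 from 13.4 to 34.4.

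Of 8 other genes from tryptophan to NAD tested, 3 rose and 2 fell in treated OCI-LY19, near the shares of all genes (34.5% and 23.7%). In OCI-LY3 4 rose and 2 fell (40.4% and 14.3% of all genes), and in HT 3 and 0 (22.9% and 9.41%). NADSYN1, which makes NAD by amidation, rose from 4.57 to 22.8 FPKM (2.10 ± 0.10, limma adjusted p = 9.45e-13), QPRT, which converts quinolinate, from 2.67 to 6.68, and NMNAT1 from 1.51 to 3.76. The 2 that fell, named after their values were seen, were KMO, upstream of HAAO, from 7.37 to 5.58 FPKM and AFMID from 13.3 to 7.55. In SUDHL5 3 of the 8 rose and 1 fell (18.6% and 19.9% of all genes), and NADSYN1 went from 6.43 to 15.2 FPKM.

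Of 5 other nicotinic receptor subunits tested in OCI-LY19, CHRNE rose from 0.833 to 1.14 FPKM, CHRNA5 fell from 4.28 to 2.71 and 3 did not pass, near the shares of all genes (34.5% rose and 23.7% fell), and in SUDHL5 0 of 5 passed (18.6% and 19.9%). The sign of CHRNE in OCI-LY19 turned under quantile normalization, to -0.10, and in SUDHL5 CHRNE passed as a fall in that setting and in the fit of that line alone. Among 4 thiol and small-molecule methyltransferases tested, 2 rose and 0 fell in each of OCI-LY19 and SUDHL5 (34.5% and 18.6% of all genes rose), with GAMT, which makes creatine, going from 16.1 to 30.5 and from 1.38 to 7.29 FPKM. Of 30 p53 target genes 28 were tested. In OCI-LY19 28 rose (median 2.53, 34.5% of all genes rose) and in SUDHL5 27 (median 1.51, 18.6%). In OCI-LY3 15 rose and 6 fell (40.4% of all genes rose and 14.3% fell), and in HT 10 and 3 (22.9% and 9.41%). With median ratios the p53 list in OCI-LY3 had 9 rising and 8 falling genes, and with quantiles 12 and 8. Another scaling also shifted the splits over all genes: with median ratios OCI-LY3 went from 7128 rising and 2522 falling genes to 4737 and 4461 (its median over all genes from 0.16 to 0.01), and with quantiles OCI-LY19 went from 6093 and 4184 to 4426 and 5482, and HT from 4038 and 1661 to 2470 and 2260. CDKN1A, the cell cycle inhibitor, went from 23.8 to 524 FPKM in OCI-LY19 and from 13.2 to 236 in SUDHL5. In OCI-LY19R 3 of 24 p53 targets rose and 1 fell (3.11% and 2.34% of all genes). Each of the 3 (BTG2, TP53I3 and ZMAT3) lost the call with no filter.

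The genes most like the members over the 24 libraries were LIF, TNFSF4, PIGR, SIGLEC14, RHBDF1, SUSD6, CCDC187, FCER1A, OXER1 and LINC01451, with Pearson r from 0.986 to 0.993 to the mean of the 6 scaled profiles. LIF, a cytokine, was 0.0696 and 4.18 FPKM before and after the drug in OCI-LY19. TNFSF4, the OX40 ligand, was 3.32 and 40.3, and the myeloid receptor SIGLEC14 was 0.140 and 20.5. FCER1A, a subunit of the IgE receptor, went from 0.151 to 17.6 FPKM there and was listed at 0 in untreated SUDHL5 and 0.200 in treated SUDHL5. Taken singly, CSPG4 and HSPG2 were nearest to TNFSF4, LDLRAD2 to LIF, HAAO to ANKRD65, CHRNA6 to ANXA4 and METTL7A to RNF19B (r = 0.989 to 0.998).

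A wider set was drawn with numeric limits, at least 2 in OCI-LY19 and within 0.5 in OCI-LY3 and in HT on the log2(FPKM + 1) scale. It holds 147 genes, among them 4 members, with CHRNA6 and METTL7A outside. In SUDHL5, which the limits did not use, 92 of the 147 rose, 4 fell and 51 did not pass (18.6% of all genes rose and 19.9% fell), with a median difference of 0.66 against 0.00126 over all genes. The p53 list shares 10 genes with the 147 and thus accounts for a small share of the set.

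**Figure D5:**
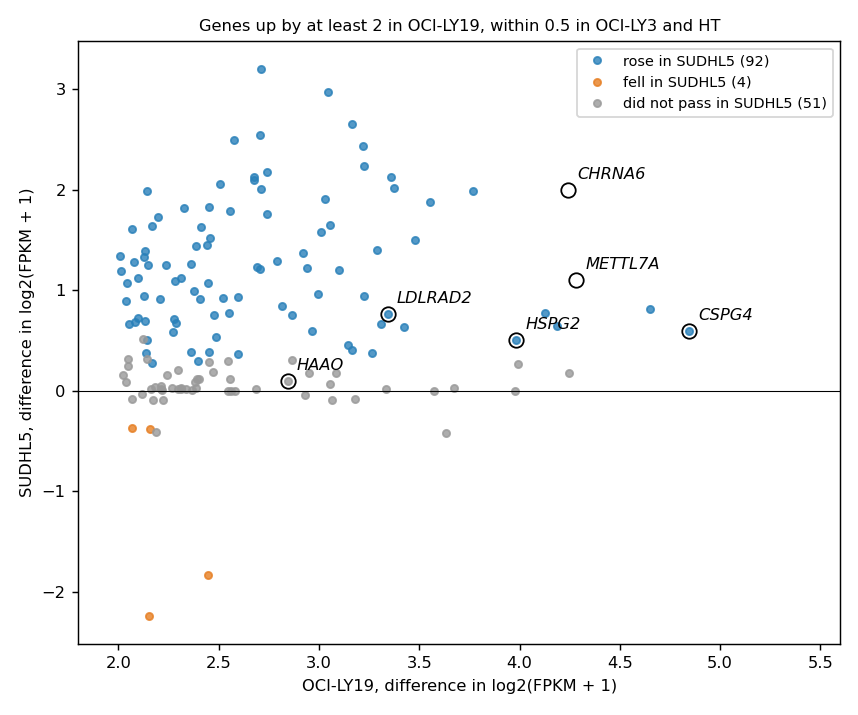
Difference in log2(FPKM + 1) in SUDHL5 (vertical) against OCI-LY19 (horizontal) for the 147 genes of the wider set, coloured by the SUDHL5 call, with the 6 members circled; CHRNA6 and METTL7A lie outside the set and are drawn as empty circles. Of the 147 genes, 92 rose and 4 fell in SUDHL5, and HAAO lies near 0 there.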

How the data were processed

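The 30 libraries were made from poly(A)-enriched RNA with a directional kit, per the labels' protocols. The submitters' processing notes name Trimmomatic, STAR, featureCounts and hg38; for versions, annotation and strand setting, not given in the sources used here. FPKM per gene was computed by the authors and comes in 2 tables scaled apart. Per the file headers, the second also has the authors' own contrast of the resistant with the sensitive culture: a mean signal, a log2 fold change, 2 columns taken as a score (its error and the statistic) and p-values, from a test that is unnamed.

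For the 39344 genes with an exon length from GENCODE 29, 100.0% of the 375715 nonzero values were a whole number of reads to 0.01 read, with a small added allowance for rounding of high values; this gave the depths and the exact binomial intervals (95%). Lengths of 18974 other genes were solved from the values. A gene entered a fit with 1 FPKM or more in 3 or more libraries of its table. Values were tested as log2(FPKM + 1), which understates the fold of low genes, by limma 3.58.1 (R 4.3.3; trended eBayes, two-sided), in 1 fit over the 8 groups of the 4 lines and another over OCI-LY19S and OCI-LY19R. A gene was called at 0.05 after Benjamini-Hochberg adjustment across its fit. The procedure was tested on simulated data. Members and gene lists were chosen with earlier results of these data known. A listed marker and a listed receptor gene are not reported here and were left out of the list counts.

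Genes named are the 6 members; up to 3 genes per list and comparison, of largest change among those that passed with no overlap between libraries; others with values only; the nearest coding genes and those overlapping a member; and the 10 genes with a symbol whose profile over 24 libraries correlates best with the mean profile of the members. Alternatives were another pseudocount (0.1), no filter or FPKM of at least 5, median-of-ratios and quantile scaling, limma-voom on recovered reads with median-ratio library sizes, each line alone, a replicate block, library-name tags and leaving out each library. In HT same-numbered libraries deviated together (correlations of 0.17, 0.32 and 0.35). In the other comparisons not every same-numbered pair did (OCI-LY19 0.36, 0.26 and 0.04). The main fit used no pairing in any line, HT included, and the replicate numbers entered only as the replicate block. Many libraries of OCI-LY19, OCI-LY3 and HT carry the same name tag at 0 h and 24 h, whose meaning the labels do not give.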

Additional observations from a re-analysis of the deposited data

How the results depend on the processing

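Depth limits the statements on HT and on untreated SUDHL5 and OCI-LY3, where CSPG4, HSPG2 and LDLRAD2 rest on 1 to 23 reads a group. The calls of the 6 members in SUDHL5 kept their direction and side of the threshold under all alternatives that gave a value; HAAO in OCI-LY19R gave none without an OCI-LY19R library, so its call was not put to that check. With the replicate block CSPG4 in OCI-LY19R passed (0.97, adjusted p = 0.042); the numbers share no stated pairing there, with correlations of same-numbered deviations of 0.01, -0.11 and 0.12. The block changed no other member's call.

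The counts over all genes moved more, and the cause was not tested. In OCI-LY19R against OCI-LY19S 397 genes rose and 299 fell. With no filter 75 rose and 55 fell, with FPKM of at least 5 177 and 191, with the replicate block 136 and 140, and on recovered reads of at least 10 in 3 libraries 735 and 614. On recovered reads of the tested genes 456 fell, and the authors' deposited table calls 1068 and 1110. Without 1 library, 3 to 620 rose and 8 to 432 fell: rises were 620, 16 and 143 without OCI-LY19S replicates 1, 2 and 3 and 166, 3 and 8 without OCI-LY19R replicates 1, 2 and 3, and falls were 432, 8 and 148, and 123, 18 and 25. Fewer libraries leave fewer degrees of freedom in these fits.

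In OCI-LY19 6093 genes rose, and 3521 with FPKM of at least 5, which tests fewer genes. In OCI-LY3 7128 rose and 2522 fell. There 4548 rose with FPKM of at least 5, scaling by median ratios gave 4737 and 4461, quantile scaling 4344 and 4197, and 4188 or 4612 fell on recovered reads (tested genes, or at least 10 reads in 3 libraries). In HT 4038 rose, and 2470 after quantile scaling; 1661 fell, and 968 in that line alone. After quantile normalization CHRNE in OCI-LY19 was at -0.10 (adjusted p = 0.335).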

Other observations

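Of the 147 genes of the wider set, 4 went the other way in SUDHL5; they are named here after their values were seen. ADM, the peptide adrenomedullin, went from 3.67 to 19.9 FPKM in OCI-LY19 and fell from 11.8 to 1.69 in SUDHL5 (by 2.25 ± 0.10 on the log2(FPKM + 1) scale, limma adjusted p = 4.84e-12). RGS1, a regulator of G protein signalling, went from 11.6 to 66.5 FPKM in OCI-LY19 and fell from 7.04 to 1.26 in SUDHL5 (by 1.83 ± 0.15, limma adjusted p = 1.17e-08). The transcription factor gene FOS fell from 11.3 to 8.41 FPKM (limma adjusted p = 0.0269) and AP1S3 from 4.81 to 3.50 (limma adjusted p = 0.0203). At the other end, GDF15, a stress cytokine on the p53 list, was 0.0970 and 8.40 FPKM before and after the drug in OCI-LY19 and 0.832 and 13.4 in SUDHL5.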
